A study of Rattus norvegicus with 20 samples.

Results

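The amino acid transporters of 7 solute carrier families were examined in rat liver: the glutamate and neutral amino acid carriers of Slc1, the heavy chains of Slc3, the sodium- and chloride-dependent carriers of Slc6, the cationic carriers and light chains of Slc7, the proton-coupled carriers of Slc36, the sodium-coupled neutral carriers of Slc38 and the facilitated carriers of Slc43. Members were chosen by current gene symbol alone (Slc1a, Slc3a, Slc6a, Slc7a, Slc36a, Slc38a or Slc43a followed by a number), without use of a measured difference. Each gene was represented by the probe set, annotated to that gene only, that had the highest mean over the 20 arrays. This gave 53 genes, carried by 72 probe sets, among 14217 genes with such a probe set. In the RefSeq list of rat genes 69 symbols follow the same rule, and the other 16 were not analysed here. One member, Slc7a6os, takes its symbol from lying on the opposite strand of Slc7a6 and is not itself a transporter.

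The rats were male Sprague-Dawley animals obtained at 4 weeks of age, housed singly and fed for 21 days. All diets held 200 g/kg protein and 150 g/kg fat. The CS group received casein and soybean oil, CF casein and fish oil, TS tofu and soybean oil, and TF tofu and fish oil. Fish oil, at 50 g/kg, took the place of the same amount of soybean oil in CF and TF, and the tofu diets were topped up with some casein. Tofu brought fat of its own, and less soybean oil was added to TS and TF than to CS and CF. Sucrose and energy per kg were also slightly lower in the tofu diets. The protein difference below thus stands for the whole change from casein to tofu. Each group had 5 rats with 1 array per rat, so the error given is that between animals, and the small number of arrays limits the precision. Rats that ate the most or the least had been left out of the arrays, and food was withdrawn before dissection.

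Amino acids cross the hepatocyte membrane on carriers that differ in what drives them. Sodium-coupled carriers such as those of system A and system N take up or release neutral amino acids along the sodium gradient, whereas the light chains of Slc7 work as exchangers when joined to a heavy chain of Slc3. The liver receives dietary amino acids through the portal vein. Hepatocytes near the portal field take up most of the glutamine, alanine and other precursors of urea and glucose, and hepatocytes around the central vein take up glutamate and ammonia and make glutamine.

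Slc1a2, the glutamate carrier GLT-1, was the member in which the diets differed most clearly, and the sequences before its annotated transcription starts are shown for that reason. RefSeq places 1 start of Slc1a2 directly after chr3:109459859-109460108 and another directly after chr3:109507697-109507946 (GRCr8, plus strand). The sequences run 5′ to 3′ up to the base before the start, and capitals mark the letters ATCAAAG, which read CTTTGAT, the core bound by TCF/LEF factors, on the other strand.
Slc1a2 start 1: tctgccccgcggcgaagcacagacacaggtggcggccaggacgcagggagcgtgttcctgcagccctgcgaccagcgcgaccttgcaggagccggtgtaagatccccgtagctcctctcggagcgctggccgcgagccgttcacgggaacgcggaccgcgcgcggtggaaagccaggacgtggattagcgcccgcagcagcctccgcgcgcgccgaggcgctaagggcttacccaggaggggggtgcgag
Slc1a2 start 2: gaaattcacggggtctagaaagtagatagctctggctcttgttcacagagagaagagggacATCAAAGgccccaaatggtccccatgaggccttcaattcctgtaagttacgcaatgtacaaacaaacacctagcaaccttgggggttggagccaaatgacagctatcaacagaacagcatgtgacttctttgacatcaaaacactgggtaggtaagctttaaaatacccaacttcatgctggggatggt
The window before start 1 had 71.2% G and C, and that before start 2 had 45.6%. CTTTGAT, searched on both strands of the 250 bases before each start, occurred before 3.46% of 27457 genes. Among the 41 members with such a window it occurred before Slc1a2 only (2.44%). TTGCATCA, a core of amino acid response elements, occurred before 0.725% of all genes and before Slc1a4 and Slc38a1 among the members (4.88%). Both motifs were picked with the values known, and a match describes letters only. Which start the probe sets of Slc1a2 report on was not determined here.

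Values are z scores. Each array was standardised to its own distribution, and by the scale of the study's methods a difference of 0.2 in z corresponds to a 1.41-fold difference. The highest median of any array was 0.0220, and a gene whose mean over the 20 arrays lay at or below this line was treated as near background. By this line 29 members were near background and 24 above it. In Slc7 11 of 15 genes were near background, in Slc6 9 of 16, in Slc1 3 of 6, in Slc38 3 of 9, in Slc36 2 of 3, in Slc3 1 of 2 and in Slc43 0 of 2. Of 14 measured genes not expected in liver, 2 were above the line. Their mean z ran from -0.876 to 0.157 with a median of -0.187. Means of different probe sets are not compared with each other, and fold differences are given only for genes above the line.

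The tissue carried its own markers: 4 measured hepatocyte genes had mean z between 3.12 and 3.57, and 3 measured lymphocyte genes were all near background. The array medians ran from -0.102 to 0.0220 and the standard deviations from 0.725 to 0.774. In 1 array of each group (TF-3 and the rats numbered 1 of CS, CF and TS), 4 in all, the 5′ probe set of actin lay between 1.30 and 1.42, against 1.86 to 2.13 in the other 16. For members above background the standard deviation within a group had a median of 0.0863 (0.0340 to 0.187), and for members near background it was 0.150 (0.0541 to 0.481).

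The first comparison asked whether the protein source altered the carriers. It set both tofu groups against both casein groups and was tested with limma over all 31039 probe sets with Benjamini-Hochberg adjustment and called at an adjusted p under 0.05. Of the 53 members 1 rose on tofu and 0 fell, against 0.557% of all probe sets called (0.3% higher and 0.258% lower). At an unadjusted p under 0.05 there were 6 members (11.3%), against 10.2% of all probe sets. The difference was above 0 in 29 members and below 0 in 24, with a median of 0.0080 against 0.0112 for all genes. The share at an unadjusted p under 0.05 lies close to that of the whole array.

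Slc1a2 rose on tofu. In liver this carrier of glutamate and aspartate is known from the hepatocytes around the central vein. The CS rats had z of -0.29, -0.21, -0.19, -0.17 and -0.24, and the CF rats -0.30, -0.38, -0.10, -0.052 and -0.11. The TS rats had 0.044, 0.032, 0.10, 0.12 and 0.15, and the TF rats 0.013, 0.40, 0.29, 0.11 and 0.079. All 10 rats on tofu lay above all 10 on casein, a separation shown by 0.0934% of all probe sets. With their SD (n = 5), the group means were -0.22 ± 0.049 (CS), -0.19 ± 0.143 (CF), 0.089 ± 0.049 (TS) and 0.18 ± 0.161 (TF). The difference between the proteins was 0.34 (standard error 0.050, 95% interval 0.23 to 0.44, adjusted p = 0.00228 from limma). It was 0.31 on soybean oil and 0.37 on fish oil (standard error 0.070 for each), and the oils differed by 0.061 (standard error 0.050, unadjusted p = 0.236 from limma).

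The mean of Slc1a2 over all arrays was -0.035, so the gene is near background by the line used here, and its casein rats all lay below the line. The other probe set of Slc1a2, with a mean of -0.65, had a difference of 0.011 (95% interval -0.19 to 0.21, adjusted p = 0.983 from limma), and the call was lost when both probe sets were averaged (difference of 0.17, adjusted p = 0.221). The call was kept in all 20 fits without 1 rat, with adjusted p between 0.00138 and 0.00674, and in the 8 other settings that tested this probe set, with adjusted p between 0.000702 and 0.0172.

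**Figure D1:**
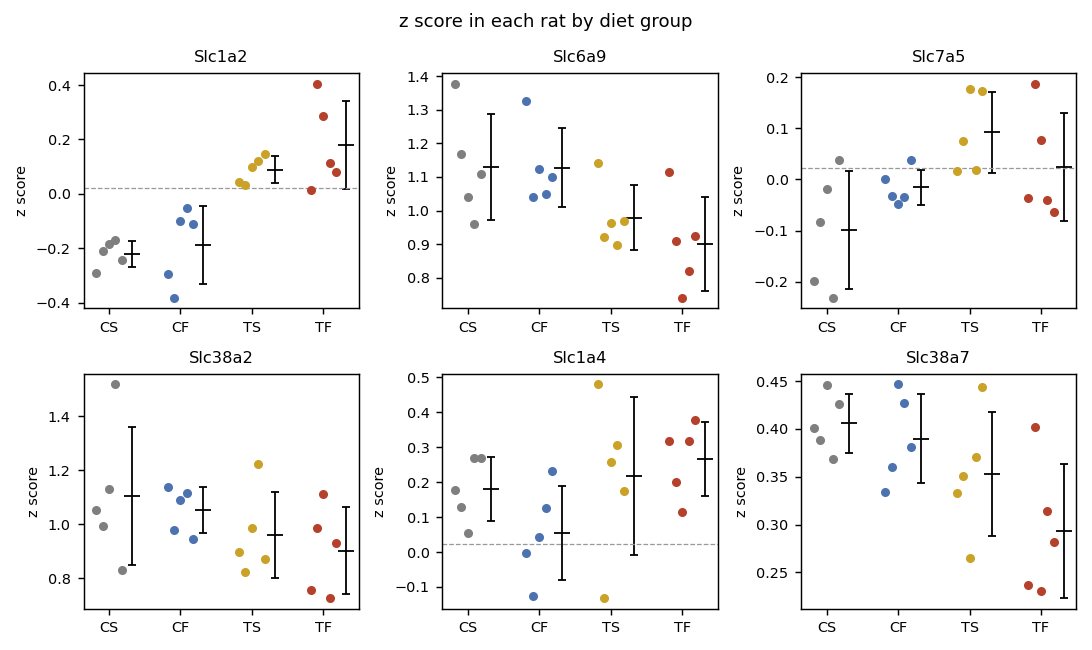
z score of 6 members (y axis) in each rat by diet group (x axis: CS, CF, TS, TF). Points are rats, black bars are means ± SD of 5 rats, and the dashed line is the highest array median, 0.0220, where it falls within the panel. For Slc1a2 all 10 tofu rats lie above all 10 casein rats, and in the other 5 panels the proteins overlap.

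Genes of hepatocytes around the central vein are set beside Slc1a2 here. Of 5 measured genes of that list 2 rose on tofu and 0 fell, against 0.557% of all probe sets called. In 5 of 5 the difference was above 0, against 58% of all genes, with a median of 0.21 against 0.0112 for all genes. Oat, the ornithine aminotransferase, was higher by 0.42 (standard error 0.067, adjusted p = 0.0043 from limma). Cyp1a2, a cytochrome P450, was higher by 0.43 (standard error 0.076, adjusted p = 0.00924). The differences of Cyp2e1 (0.20, adjusted p = 0.0636), Glul, the glutamine synthetase (0.15, adjusted p = 0.319), and Lgr5 (0.21, adjusted p = 0.139) did not pass the test. Lgr5 was near background, with a mean of -0.53 over all arrays, and its difference is the median of the list. The mean over these 5 genes ran from 1.38 to 1.71 for CS, 1.47 to 1.59 for CF, 1.68 to 1.92 for TS and 1.83 to 1.99 for TF. Their part in the difference of Slc1a2 was not tested, and in whole liver more cells of a type and more RNA per cell cannot be told apart. In the 16 arrays without low 5′ actin the differences were 0.40 for Oat and 0.42 for Cyp1a2, about as large as in all 20, with larger standard errors (0.083 and 0.088), and neither call was kept (adjusted p = 0.0657 for each). Without the 3 least correlated arrays Cyp1a2 differed by 0.41 (adjusted p = 0.0779).

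**Figure D2:**
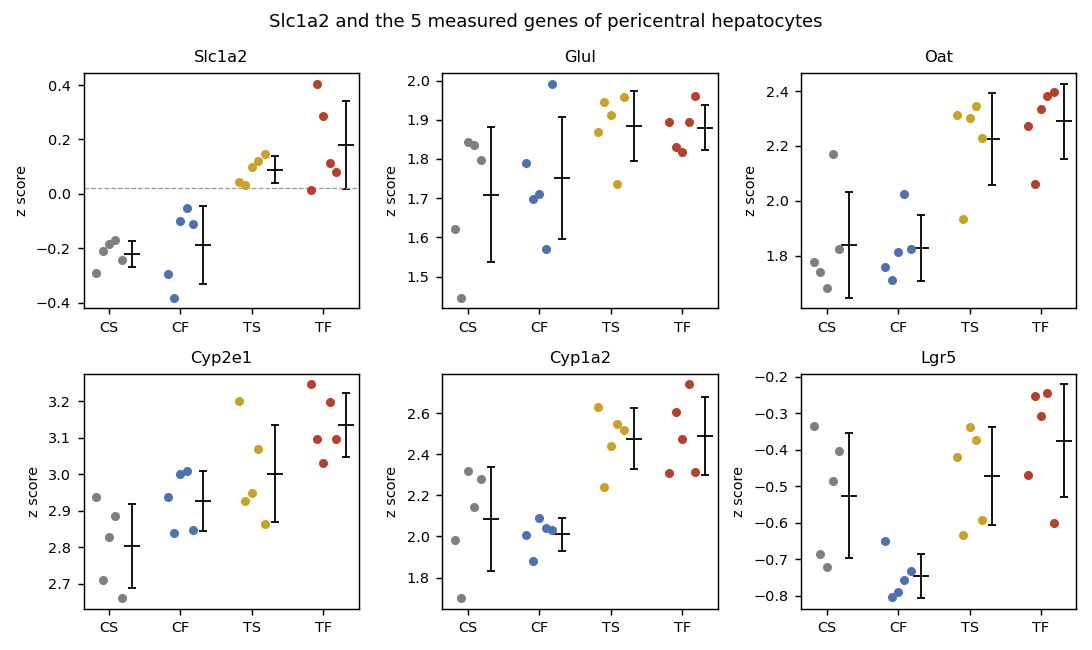
z score of Slc1a2 and of the 5 measured genes of pericentral hepatocytes (y axis, scale differs by panel) in each rat by diet group (x axis). Points are rats and bars are means ± SD of 5 rats. The tofu groups are centred above the casein groups in all 6 panels, and the groups do not overlap between proteins for Slc1a2 alone. Slc1a2 and Lgr5 are near background.

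Genes of the hepatocytes near the portal field gave no call. Of 6 measured genes 0 passed the test. In 5 of 6 the difference was above 0, against 58% of all genes, and the median was 0.072 against 0.0112 for all genes. Sds, the serine dehydratase, had a difference as large as those of Oat and Cyp1a2 (0.41, 2.04-fold, standard error 0.119, adjusted p = 0.170 from limma), with 9 of 10 tofu rats above the casein mean. The other 5 genes had differences from -0.046 (Cyp2f4) to 0.093 (Pck1). Their mean ran from 1.70 to 1.99 for CS, 1.77 to 1.93 for CF, 1.87 to 2.03 for TS and 1.77 to 2.08 for TF. Lists for Kupffer cells, endothelial cells, stellate cells, cholangiocytes, red blood cells, lymphocytes and pancreas had 0 members called for the protein. The 4 measured hepatocyte genes also had 0. Differences were above 0 in 4 of 4 Kupffer cell genes, 4 of 5 stellate cell genes and 3 of 4 hepatocyte genes. They were above 0 in 1 of 3 cholangiocyte, 1 of 2 red blood cell, 1 of 3 lymphocyte and 1 of 3 pancreas genes. The differences of the 5 measured endothelial genes were all above 0, against 58% of all genes, with a median of 0.067. Stab2 among them had 0.13 (adjusted p = 0.0635 from limma), with 10 of 10 tofu rats above the casein mean. The mean over the 5 ran from 1.003 to 1.12 for CS, 1.02 to 1.11 for CF, 1.11 to 1.23 for TS and 1.09 to 1.20 for TF.

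The other glutamate carriers of Slc1 gave no call. Slc1a1, the carrier EAAC1, was near background and had group means of -0.35, -0.32, -0.21 and -0.29 in CS, CF, TS and TF. Slc1a3, the carrier GLAST, is described with the oils. Slc1a4 and Slc1a5, the neutral amino acid exchangers ASCT1 and ASCT2, were above the line and gave no call. Slc1a4 had means of 0.18 ± 0.092 (CS), 0.054 ± 0.135 (CF), 0.22 ± 0.225 (TS) and 0.27 ± 0.106 (TF), a protein difference of 0.12 (standard error 0.064, adjusted p = 0.535). The TS rats alone ran from -0.13 to 0.48. Slc1a5 had means of 0.074, 0.048, 0.031 and -0.012 in CS, CF, TS and TF.

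Slc6a9, the glycine carrier GlyT1, came closest to a call among the members above background, and its probe sets did not give the same answer. By the probe set with the highest mean, the CS rats had z of 1.38, 1.17, 1.04, 0.96 and 1.11, and the CF rats 1.33, 1.04, 1.12, 1.05 and 1.10. The TS rats had 1.14, 0.92, 0.96, 0.90 and 0.97, and the TF rats 1.11, 0.91, 0.74, 0.82 and 0.92. In 9 of 10 tofu rats the value was below the casein mean, and the groups overlapped. The difference was -0.19 (1.39-fold, standard error 0.0565, 95% interval -0.31 to -0.071, adjusted p = 0.185 from limma), which did not pass the test. The array with low 5′ actin held the highest value of its group in all 4 groups, by this probe set and by the next one described. In the 16 arrays without them the difference was -0.18 (standard error 0.0370, adjusted p = 0.0653).

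By a further probe set of Slc6a9 the gene fell on tofu. There the CS rats had z of 0.58, 0.52, 0.56, 0.42 and 0.55, and the CF rats 0.70, 0.43, 0.42, 0.45 and 0.50. The TS rats had 0.50, 0.32, 0.36, 0.41 and 0.34, and the TF rats 0.38, 0.26, 0.18, 0.30 and 0.26. All 10 tofu rats lay below the casein mean, and TS-1 was the single tofu rat above the lowest casein rat. The difference was -0.18 (1.37-fold lower, standard error 0.039, 95% interval -0.26 to -0.10, adjusted p = 0.0359 from limma). This call was kept in 6 of 20 fits without 1 rat, those without CS-6, CF-1, CF-2, CF-5, TS-1 or TF-3, and ended in the other 14 (highest adjusted p 0.0704, without TF-7). In the 16 arrays without low 5′ actin the difference was -0.18 (adjusted p = 0.0227). A last probe set had a difference of -0.055 (adjusted p = 0.777). The probe set was looked at after its value was seen, since the rule takes another.

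The other members of Slc6 above background had differences between -0.084 and 0.060 for the protein. Slc6a13, a carrier of GABA and taurine found in liver, had means of 1.56 ± 0.092 (CS), 1.61 ± 0.133 (CF), 1.60 ± 0.079 (TS) and 1.59 ± 0.178 (TF). Slc6a6, the taurine carrier, had 1.37, 1.28, 1.44 and 1.33 in CS, CF, TS and TF, with standard deviations from 0.049 to 0.223. Slc6a8, the creatine carrier, had 0.20, 0.21, 0.22 and 0.23. The 9 members near background include carriers of nerve cells, among them Slc6a3 and Slc6a4 for dopamine and serotonin, and their protein differences ran from -0.14 to 0.20 without a call.

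Heavy and light chains were called in no comparison. Slc3a2, the heavy chain 4F2hc, had means of 1.45 ± 0.106 (CS), 1.47 ± 0.095 (CF), 1.49 ± 0.050 (TS) and 1.56 ± 0.068 (TF), with a difference of 0.071 (1.13-fold, standard error 0.038, adjusted p = 0.562). Slc7a5, the light chain LAT1 for large neutral amino acids, was near background. Its CS rats had z of -0.20, -0.084, -0.018, -0.23 and 0.037, and its CF rats 0.00020, -0.032, -0.047, -0.034 and 0.038. Its TS rats had 0.017, 0.075, 0.18, 0.019 and 0.17, and its TF rats -0.036, 0.19, 0.076, -0.040 and -0.063, so the proteins overlapped. The protein difference was 0.12 (standard error 0.041, 95% interval 0.030 to 0.20, adjusted p = 0.291), with 9 of 10 tofu rats above the casein mean. It was 0.19 on soybean oil and 0.040 on fish oil, and the interaction had an unadjusted p = 0.0789. Slc7a8, the light chain LAT2, had means of 0.33, 0.34, 0.30 and 0.35 in CS, CF, TS and TF, and Slc7a7, the light chain of y+L transport, 0.12, 0.095, 0.14 and 0.11. Slc7a11, the cystine carrier, was near background with means of -0.50, -0.42, -0.47 and -0.42.

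Among the cationic carriers, Slc7a2, which hepatocytes use for arginine and lysine, was near background here (means of -0.18, -0.13, -0.13 and -0.15 in CS, CF, TS and TF). Slc7a1 had means of 0.18, 0.18, 0.23 and 0.22 by the chosen probe set, a difference of 0.041 (standard error 0.045, adjusted p = 0.817). Another probe set of Slc7a1 had a difference of -0.16 (standard error 0.048, adjusted p = 0.180) with 10 of 10 tofu rats below the casein mean. Neither passed the test, and they differ in sign. Slc7a4 was near background, with a protein difference of 0.19 (standard error 0.079, adjusted p = 0.409).

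The sodium-coupled neutral carriers of Slc38 were called in no comparison. Slc38a4, the system A carrier SNAT4 that is abundant in liver, had means of 2.43 ± 0.081 (CS), 2.51 ± 0.079 (CF), 2.48 ± 0.054 (TS) and 2.47 ± 0.098 (TF). Its protein difference was 0.0046, with a 95% interval from -0.073 to 0.082. Slc38a3, the system N carrier SNAT3 for glutamine and histidine, had means of 1.80, 1.75, 1.90 and 1.80, a protein difference of 0.074 (1.14-fold, standard error 0.039, adjusted p = 0.553). Slc38a2, the system A carrier SNAT2, which responds to amino acid supply in many cells, had means of 1.11 ± 0.255 (CS), 1.05 ± 0.086 (CF), 0.96 ± 0.159 (TS) and 0.90 ± 0.161 (TF), a difference of -0.15 (1.29-fold, standard error 0.075, 95% interval -0.30 to 0.0088, adjusted p = 0.524). Its CS group ran from 0.83 to 1.52, and CS-6 was the highest of all 20 rats.

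Slc38a7, a carrier of lysosomes, was the Slc38 member with an unadjusted p under 0.05 for the protein. Its means were 0.41 ± 0.031 (CS), 0.39 ± 0.047 (CF), 0.35 ± 0.065 (TS) and 0.29 ± 0.070 (TF), and 8 of 10 tofu rats lay below the casein mean. The difference was -0.075 (1.14-fold, standard error 0.0285, unadjusted p = 0.0165, adjusted p = 0.345 from limma), which did not pass the test. Slc38a9, which couples lysosomal arginine to mTORC1, was near background with means of -0.021, -0.12, -0.091 and -0.10. Slc38a10 had means of 1.333, 1.272, 1.402 and 1.347.

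Slc43a1, the carrier LAT3, had means of 1.04, 0.99, 0.95 and 0.99 in CS, CF, TS and TF, and Slc43a2, the carrier LAT4, 0.62, 0.59, 0.65 and 0.59. Slc36a1, a proton-coupled carrier of small neutral amino acids, had 0.22, 0.24, 0.24 and 0.23. None of these was called.

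The 95% interval of the protein difference lay within ±0.2 in 31 of the 53 members (58.5%). Among members above background it did so in 18 of 24 (75%), against 89.3% of all genes above background. The other 13 of the 31 were near background, where a narrow interval describes the probe set's values and does not bound a difference of the gene. The remaining members had intervals reaching past ±0.2, and a call not made there does not show equal levels.

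**Figure D3:**
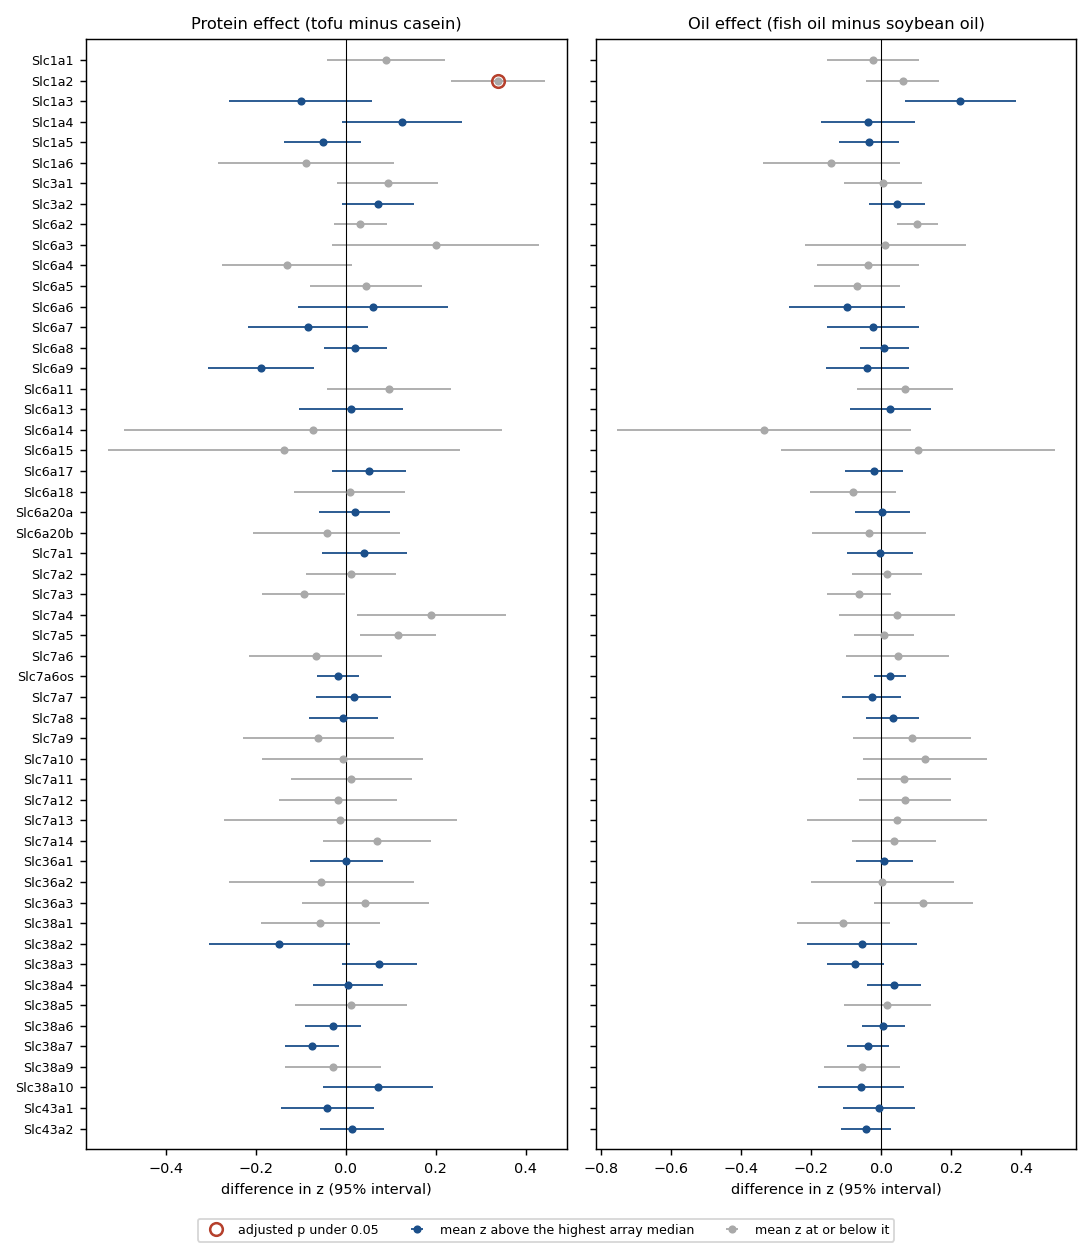
Difference in z (x axis) for each of the 53 members (y axis), tofu minus casein on the left and fish oil minus soybean oil on the right, with 95% intervals. Blue points have a mean above the highest array median, grey points a mean at or below it, and the red ring marks an adjusted p under 0.05. The ring stands at Slc1a2 on the left (0.34), and the right panel has none.

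The second comparison asked whether the oil altered the carriers. It set both fish oil groups against both soybean oil groups. Of the 53 members 0 were called, against 0.193% of all probe sets (0.177% higher and 0.0161% lower), and at an unadjusted p under 0.05 there were 2 (3.77%), against 5.55% of all probe sets. The lowest adjusted p was 0.337. Differences were above 0 in 29 members and below 0 in 24, with a median of 0.0044, and they ran from -0.34 (Slc6a14, near background) to 0.23 (Slc1a3). The interval lay within ±0.2 in 37 members (69.8%), and in 21 of the 24 above background (87.5%).

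Slc1a3 had the largest oil difference among the members above the line, but it passed the line through CF alone. The CF mean was 0.30, whereas the means of CS (-0.11), TS (-0.030) and TF (0.012) all lay below 0.0220. The CS rats had z of -0.27, -0.36, -0.018, -0.055 and 0.13, and the CF rats 0.45, 0.15, 0.27, 0.26 and 0.34. The lowest CF rat (0.15) thus lay just above the highest CS rat (0.13). How many of all probe sets separate these groups was not counted. The TS rats had -0.25, -0.041, 0.084, 0.26 and -0.19, and the TF rats -0.30, 0.14, 0.061, 0.14 and 0.028, which overlapped. The oil difference was 0.23 (standard error 0.076, unadjusted p = 0.00784, adjusted p = 0.623 from limma) and did not pass the test. It was 0.41 on casein and 0.042 on tofu. The other probe sets of Slc1a3 had oil differences of 0.030 and -0.20, and by the latter CF lay 0.45 below CS (difference of -0.45), so the probe sets disagree.

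Slc6a2, the noradrenaline carrier, had the lowest unadjusted p for the oil (0.00177, adjusted p = 0.337). It was near background, with means of -0.35, -0.32, -0.39 and -0.21 in CS, CF, TS and TF and a difference of 0.10 (standard error 0.028). For Slc38a3 10 of 10 fish oil rats lay below the soybean oil mean, with a difference of -0.074 (standard error 0.039, adjusted p = 0.937 from limma). The oils overlapped, however, with fish oil rats from 1.71 to 1.83 and soybean oil rats from 1.74 to 2.15. That mean includes TS-5 (2.15) and CS-5 (1.92), the highest rats of their groups. How many of all probe sets show 10 of 10 was not counted.

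The third comparison asked whether the oil difference depended on the protein. No member was called (0 of 53, as for 0% of all probe sets), and the lowest adjusted p was 1. At an unadjusted p under 0.05 there were 3 members, Slc6a2 (0.0110), Slc1a3 (0.0254) and Slc38a5 (0.0399), against 3.43% of all probe sets. The standard error of an interaction had a median of 0.116 over the members, against 0.0582 for a main effect.

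Members with several probe sets show how far a value depends on the probe set. Of 12 such genes, 6 had differences of the same sign for all probe sets in the protein comparison and 5 in the oil comparison. Of the 72 probe sets, 2 were called for the protein, 1 each of Slc1a2 and Slc6a9, against 0.557% of all probe sets. For the oil 0 were called, against 0.193% of all probe sets.

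**Figure D4:**
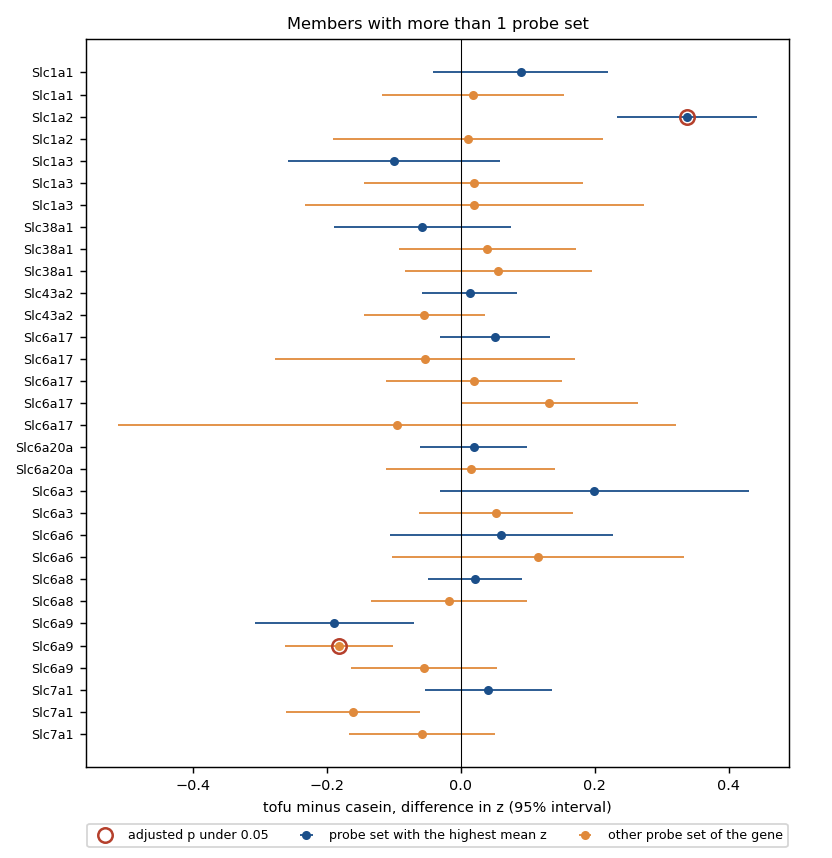
Difference in z between tofu and casein (x axis) for every probe set of the 12 members with more than 1 (y axis), with 95% intervals. Blue points are the probe sets with the highest mean and orange points the others, and red rings mark an adjusted p under 0.05. Only Slc1a2 and Slc6a9 carry a ring, each on 1 of its probe sets.

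Carriers of amino acids outside these families were set beside them from a separate list, which also held the partner protein Cltrn. Of 14 measured genes 1 rose on tofu and 0 fell, against 0.557% of all probe sets called. In 10 the difference was above 0, against 58% of all genes, with a median of 0.047 against 0.0112 for all genes. Slc16a10, the carrier TAT1 for aromatic amino acids, had z of 0.29, 0.26, 0.21, 0.38 and 0.26 in the CS rats and 0.34, 0.16, 0.31, 0.32 and 0.30 in the CF rats. The TS rats had 0.49, 0.22, 0.51, 0.46 and 0.52, and the TF rats 0.50, 0.42, 0.45, 0.55 and 0.45. Every tofu rat but TS-2 lay above all casein rats. The difference was 0.17 (1.35-fold higher, standard error 0.038, 95% interval 0.094 to 0.25, adjusted p = 0.0455 from limma). This call was kept only in the fits without CS-6 or without TS-2 among the 20 fits without 1 rat, and the highest adjusted p was 0.0916, without TF-6. Slc25a44, a mitochondrial carrier of branched-chain amino acids, had a difference of -0.090 (adjusted p = 0.145) with 10 of 10 tofu rats below the casein mean. Slc25a15, the ornithine carrier of mitochondria, had 0.090 (adjusted p = 0.351). Slc32a1 and Cltrn, both near background, had larger differences without a call. Slc32a1 had 0.22 (adjusted p = 0.105 from limma), with 10 of 10 tofu rats above the casein mean, and Cltrn 0.60 (adjusted p = 0.252 from limma). None of the list was called for the oil.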

How the data were processed

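Liver RNA of 20 rats was hybridised to Affymetrix Rat Genome arrays, 1 array per rat, in 4 groups of 5. The deposited values are z scores, which the authors obtained with the SuperNORM service by standardising each array to its own distribution, and they stand on a log-like scale. How background was treated is not given in the sources used here. Of 31099 probe sets 57 are controls, and 31039 with at least 3 values in every group were tested. Platform annotation gave 20825 of these 1 symbol, 436 several and 9778 none. The current symbol was looked up by Entrez ID, which was found in RefSeq for 20757 of the 20825.

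The z scores were fitted with limma 3.58.1 in R 4.3.3 as 4 group means, with moderated variances. Contrasts were protein (tofu minus casein), oil (fish oil minus soybean oil) and their interaction, each with Benjamini-Hochberg adjustment over every probe set tested. The study's analysis of variance over probe cells needs cell signals, which were not used here. The scripts were tested on simulated data.

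Members and lists were chosen with earlier results of these data known. Named genes were the members called in any contrast, the 5 members above background with the lowest unadjusted p in each direction for protein and oil, and 24 measured carriers known in liver, 30 genes in all. Other genes named were chosen after their values were seen. The study's methods name no pairing of rats by number, and the main fit used no block. Alternatives were quantile normalization, scaling of the arrays, bright probe sets only, a rat number block, a variance trend, unmoderated variances, array weights, subsets of arrays, averaged probe sets, a threshold of 0.1 and leaving out each rat. Promoter windows come from RefSeq (GRCr8), in which 41 members had one.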

Additional observations from a re-analysis of the deposited data

Results flagged for a closer look

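In 8 of 120 groups of 5 rats, over the 30 named genes, 1 rat stood apart from the other 4. Chance gives about 1 such group in 20. Slc1a3 was -0.30 in TF-3, with the other TF rats between 0.028 and 0.14. Slc36a1 was 0.29 in CF-5 (others 0.23 to 0.25) and 0.036 in TS-7 (others 0.25 to 0.32). Slc38a3 was 1.92 in CS-5, against 1.74 to 1.78. Slc6a13 was 1.38 in CF-1, against 1.62 to 1.69, and Slc7a1 was 0.30 in the same rat, against 0.15 to 0.17. Slc6a7 was 0.41 in CF-6, against 0.028 to 0.13. Slc7a8 was 0.54 in TF-4, against 0.28 to 0.34. CF-1 and TF-3 are among the 4 arrays with low 5′ actin, whose part in these values was not tested.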

How the results depend on the processing

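The number of members called for the protein, 1 (Slc1a2), stayed at 1 in 8 of 11 other settings and in all 20 fits without 1 rat (range 1 to 1). It was 0 with bright probe sets only, where Slc1a2 was not among those tested, and 0 when all probe sets of a gene were averaged. With the rat number as a block it was 2, Slc1a2 (adjusted p = 0.0172 from limma) and Slc6a9 (difference of -0.21, adjusted p = 0.0238). Deviations of same-numbered rats had a median correlation of 0.0370 (-0.0975 to 0.128). For rats of different numbers it was -0.0080 (-0.116 to 0.220). Correlations over all probe sets do not decide whether the numbers pair rats, and the study's methods name no such pairing. For the oil and the interaction 0 members were called in every setting run, the block included. With the added probe set of Slc6a9, chosen after seeing the data, the call passed (-0.18, adjusted p = 0.0359), and its adjusted p lay between 0.00815 and 0.18 in 9 other settings. That of Slc16a10 lay between 0.0111 and 0.177. Over all probe sets the protein calls numbered 173. They ranged from 114 (without CS-2) to 164 in fits without 1 rat and from 72 (the 16 arrays with higher 5′ actin) to 356 (bright probe sets only) in other settings, with 74 in 17 arrays, 91 with the block, 289 with a variance trend and 333 at a threshold of 0.1. The oil calls numbered 60, against 46 to 60 without 1 rat and 27 (block) to 76 (bright probe sets only) elsewhere, with 34 in 17 arrays. The causes were not tested. Genes near background have low signal, and how small a difference could be detected in them was not tested.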
